A study of Mus musculus with 10 samples.

Results

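Expression of 10 genes of immunoglobulin-like cell adhesion molecules was followed in adult mouse haematopoietic stem cells (HSCs) that carried an inducible Sox17 transgene, set against HSCs of their wild-type littermates. They were the neural cell adhesion molecules Ncam1 and Ncam2, Alcam, Mcam, the junctional adhesion molecules F11r, Jam2 and Jam3, Cadm1, and the intercellular adhesion molecules Icam1 and Icam2. All 10 were found, of 19938 genes with a probe set of their own, and each had exactly 1 such probe set, so the step that takes a gene's brightest probe set over all arrays had no choice to make. Ncam2 was put in the group because its difference between the genotypes was already known, and the other 9 are its relatives by protein family.

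The 5 transgenic samples came from mice carrying (tetO)7CMVSox17-IRES-NucEGFP together with the Gt(ROSA)26Sortm1(rtTA*M2)Jae allele (strain B6.Cg), in which an activator driven from the broadly active ROSA26 locus switches on Sox17 and a nuclear green fluorescent protein when doxycycline is given. The 5 wild-type samples came from littermate controls, and whether these carry either transgene is not said beyond the words wild type. Both groups were 8 weeks old and drank doxycycline at 2 mg/ml for 5 days. Each sample was an aliquot of 10000 bone marrow cells sorted as CD150+, CD48-, lineage-negative, Sca1+ and cKit+, read on 1 Affymetrix Mouse Gene 1.0 ST array. The aliquots are called independent, but no label ties them to separate animals, and the p-values therefore reflect how far the aliquots scatter, part of which may be technical.

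Immunoglobulin-like adhesion molecules are membrane proteins whose extracellular immunoglobulin domains bind either the same protein on a neighbouring cell or another receptor, often an integrin. NCAM proteins join neurons to one another and are best known from axon growth, while ICAM proteins hold leukocytes to endothelium and JAM proteins sit at cell junctions. In the bone marrow, JAM-C on mouse HSCs binds JAM-B on stromal cells, and several of these proteins are used as markers of stem, stromal or endothelial cells.

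Values are log2 expression units from the authors' robust multi-array average, in which 1 unit is a doubling of signal. They compare arrays for a given probe set and do not rank genes by abundance. Of 8 listed genes of stem cells and of the sort gate, 7 had a probe set, and 0 passed an adjusted p of 0.05 in limma, the threshold used throughout. Hlf read 10.22 ± 0.14 in transgenic and 10.23 ± 0.15 in wild-type HSCs (SD, n = 5 each), but the groups were not alike across the list. Procr was higher without overlap (difference 1.08), Kit was lower (-0.47), and Cd48, whose protein the gate selects against, read 5.54 to 7.00 on transgenic arrays and 4.47 to 5.76 on wild-type arrays (difference 1.34, limma adjusted p = 0.145). The Sox17 probe set read 4.25 to 4.51 in the transgenic group and 4.02 to 4.30 in the wild-type group (limma adjusted p = 0.855), so a rise of Sox17 was not detectable there and every direction given here rests on the arrays' labels. Transgenic array 4 had Xist at 4.32, against 10.8 to 11.4 on the other 9, and so read as male. The arrays also fell into a set A (transgenic 1, 2 and 3, wild type 1 and 2) and a set B (transgenic 4 and 5, wild type 3, 4 and 5) by the first principal component of their deviations from the group means, a split found in these values and not given by the labels.

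Promoter sequences of 5 of the 10 genes were held in the RefSeq table of build GRCm38.p6, each running from 250 bases before to 50 bases after the start of the gene. Those of Ncam2, the gene with the large difference, and of Alcam, which lies on the same chromosome and whose groups overlapped, are shown 5′ to 3′ on the strand of the gene. Capitals mark CG dinucleotides. The Ncam2 window is chr16:81200447-81200746 on the plus strand and the Alcam window is chr16:52453032-52453331 on the minus strand.
Ncam2: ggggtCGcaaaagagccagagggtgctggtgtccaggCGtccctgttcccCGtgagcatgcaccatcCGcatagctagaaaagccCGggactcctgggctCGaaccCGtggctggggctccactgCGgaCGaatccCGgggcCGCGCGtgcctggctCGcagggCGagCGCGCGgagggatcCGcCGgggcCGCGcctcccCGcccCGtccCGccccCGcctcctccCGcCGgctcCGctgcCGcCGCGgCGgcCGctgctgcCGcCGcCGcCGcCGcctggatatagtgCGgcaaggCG
Alcam: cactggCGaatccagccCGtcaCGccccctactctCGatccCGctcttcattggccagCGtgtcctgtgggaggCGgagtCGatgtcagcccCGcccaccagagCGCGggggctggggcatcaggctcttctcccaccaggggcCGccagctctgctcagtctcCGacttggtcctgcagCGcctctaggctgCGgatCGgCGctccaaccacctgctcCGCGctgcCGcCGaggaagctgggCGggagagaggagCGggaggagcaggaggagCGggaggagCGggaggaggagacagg
The Ncam2 window holds 41 CG dinucleotides, a number reached by 3.46% of the 32851 promoters in the table, against 25 in the Alcam window, reached by 18.4%. The median over all promoters was 7, and the windows of F11r, Icam1 and Mcam held 19, 19 and 29. The letters ACAAT, the core bound by SOX proteins, were searched on both strands and occurred in 0 of the 5 windows and in 31.0% of all promoters. That says only that these letters are not in these windows.

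Among the 10 genes, Ncam2 was the one that stood apart between the groups. Ncam2 is a relative of NCAM1 with a transmembrane and a lipid-anchored form, known chiefly from olfactory neurons. It read 8.54, 7.51, 9.31, 7.92 and 7.84 on transgenic arrays 1 to 5, against 5.52, 6.03, 6.03, 5.63 and 5.49 on wild-type arrays 1 to 5. Every transgenic array lay above every wild-type array, with 1.48 units between the lowest transgenic and the highest wild-type value. The groups averaged 8.22 ± 0.71 and 5.74 ± 0.27 (SD, n = 5 each), a log2 difference of 2.48 (SE 0.29) or 5.60-fold, with a 95% interval of 3.57-fold to 8.77-fold. The difference was the 4th highest of 23410 probe sets, which is how the gene came to be chosen, so it is given as a description and without a test. Such a choice tends to inflate the estimate, and neither the SE nor the interval allows for it. The wild-type values lay close to the median of all tested probe sets on an array, which ran from 5.74 to 5.83. In sorted populations such as these, more cells of a type with Ncam2 RNA and more Ncam2 RNA per cell cannot be told apart.

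**Figure D1:**
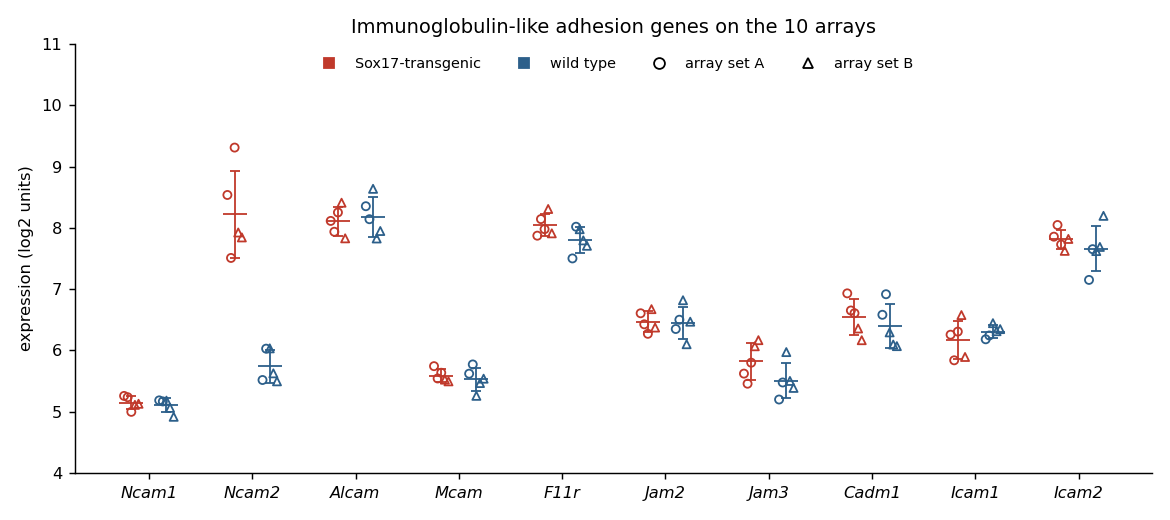
Expression of the 10 adhesion genes in log2 units (y axis) on 5 Sox17-transgenic arrays (red, left of each pair) and 5 wild-type arrays (blue, right), with circles for array set A and triangles for set B. Horizontal marks and bars are the mean ± SD of 5 arrays. Ncam2 lies at 7.51 to 9.31 on the transgenic arrays and 5.49 to 6.03 on those of wild type, and the other 9 genes overlap between the groups.

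The transgenic arrays varied more in Ncam2 than the wild-type ones. Transgenic array 3 was highest and transgenic array 2 lowest, 1.80 units apart, while the wild-type arrays lay within 0.54 units. The spread of Ncam2 around its group means ranked at percentile 96.3 among tested probe sets. The difference was present in both array sets: the means were 8.45 and 5.77 in set A, a difference of 2.68, and 7.88 and 5.72 in set B, a difference of 2.17. Without transgenic array 4, which read as male, it was 2.56. Without transgenic arrays 1 and 3, left out after seeing the data because of their Cdh5 level given next, it was 2.02 (SE 0.17). Both arrays were also the highest for Ncam2, so leaving them out lowers the difference and the spread. The SE does not allow for that.

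Transgenic arrays 1 and 3, the highest for Ncam2, also had the highest summed endothelial markers and the highest Cdh5 and Vwf, while Tie1 was highest on transgenic array 5 (8.53) and Tek and Emcn on transgenic array 4 (7.45 and 8.91). Vascular endothelial cadherin, Cdh5, read 7.38 and 7.70 on transgenic arrays 1 and 3, 5.86, 5.58 and 5.85 on transgenic arrays 2, 4 and 5, and 4.58 to 5.36 on the wild-type arrays. Summed over all 8 listed endothelial genes (Cdh5, Kdr, Tek, Tie1, Emcn, Plvap, Stab2 and Vwf), the log2 level was 50.7 to 55.2 on transgenic arrays and 48.2 to 50.1 on wild-type arrays, without overlap. Of the 8 genes 5 had positive differences, 0 passed the threshold in limma and 4 lay below the median brightness. These were Cdh5, at percentile 48.7, and Kdr, Plvap and Stab2, which read 4.32 to 5.22, 4.50 to 4.77 and 5.41 to 5.58 on the transgenic arrays. Kdr, Plvap and Stab2 differed by -0.04, -0.01 and -0.02. The largest differences of the list were those of Cdh5 (1.48) and Vwf (1.28), ahead of Emcn (0.41), Tie1 (0.34) and Tek (0.19). Tek, Emcn and Vwf are expressed by HSCs too.

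**Figure D2:**
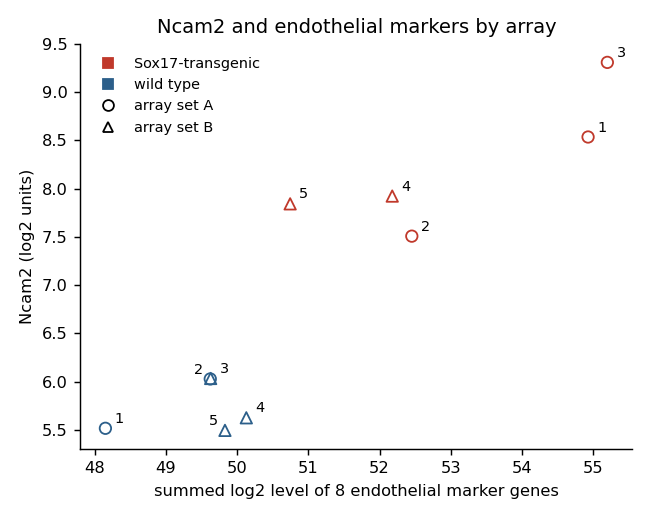
Ncam2 in log2 units (y axis) against the summed log2 level of 8 endothelial marker genes (x axis), 1 point per array, numbered by replicate; red is Sox17-transgenic, blue wild type, circles array set A and triangles set B. Transgenic arrays 1 and 3 are highest on both axes, and transgenic array 5, at 50.7, lies near the highest wild-type sum of 50.1 with Ncam2 at 7.84.

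Other marker sums moved with the groups as well. The 7 measured megakaryocyte and platelet genes summed to 43.9 to 46.0 in the transgenic group and 48.1 to 52.4 in the wild-type group, with Pf4 past the threshold and lower. Of these, 1 had a positive difference, Itgb3 (0.60, limma adjusted p = 0.600). Gp5 was lower without overlap (-1.08, limma adjusted p = 0.132). The stem cell sum was 57.0 to 58.6 on the transgenic arrays and 53.3 to 56.0 on those of wild type, and without Cd48 it overlapped, at 50.7 to 51.8 for transgenic and 48.8 to 51.0 for wild-type arrays. The stromal sum of 8 genes, at 37.3 to 38.4 on transgenic arrays and 36.7 to 38.5 on wild-type arrays, overlapped, as did the erythroid sum. Of the 7 measured erythroid genes 2 had positive differences and 0 passed the threshold in limma, but Epor was lower without overlap (-0.46). The granulocyte and monocyte sum was 45.9 and 53.7 on transgenic arrays 4 and 5, above the highest wild-type value of 42.1. On transgenic arrays 1 to 3 it was 39.9 to 41.2. Of its 8 genes 7 had positive differences. The lymphoid sums overlapped, but Flt3 was higher (1.53) and Nkg7 lower (-1.17) without overlap, neither of them past the threshold. The part of these markers in the Ncam2 difference was not tested.

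Ncam1, whose protein carries most of the polysialic acid of the nervous system, did not share the difference. It read 5.26, 5.24, 5.00, 5.11 and 5.13 on the transgenic arrays, against 5.18, 5.17, 5.18, 5.06 and 4.92 on the wild-type arrays. The groups overlapped, and the log2 difference was 0.04 (SE 0.08, limma adjusted p = 0.982), with a 95% interval of 0.909-fold to 1.17-fold. Its mean brightness ranked at percentile 37.7 among tested probe sets, and at such dim signals a change of RNA is compressed.

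The threshold was an adjusted p of 0.05 in limma with Benjamini-Hochberg adjustment over 23410 probe sets, which 0.141% of all tested probe sets passed. Ncam2, chosen on this contrast, is not counted as a call. Of the other 9 genes, 0 passed, which so few genes cannot set apart from that share, and 0 had an unadjusted p under 0.05, as 6.59% of all probe sets did. Their adjusted p ran from 0.801 to 0.995. Their median difference was 0.06 against -0.01 over all tested probe sets, with 7 positive and 2 negative, where 46.3% of all probe sets were positive. The 95% intervals of these 9 reached from 0.742-fold to 1.60-fold at most, so changes of signal beyond that range lie outside every one of them. They do not bound the RNA itself. Ncam1, Mcam and Jam3 lay below the median brightness, at percentiles 37.7, 45.7 and 47.4, and a change of RNA is compressed at dim signals.

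**Figure D3:**
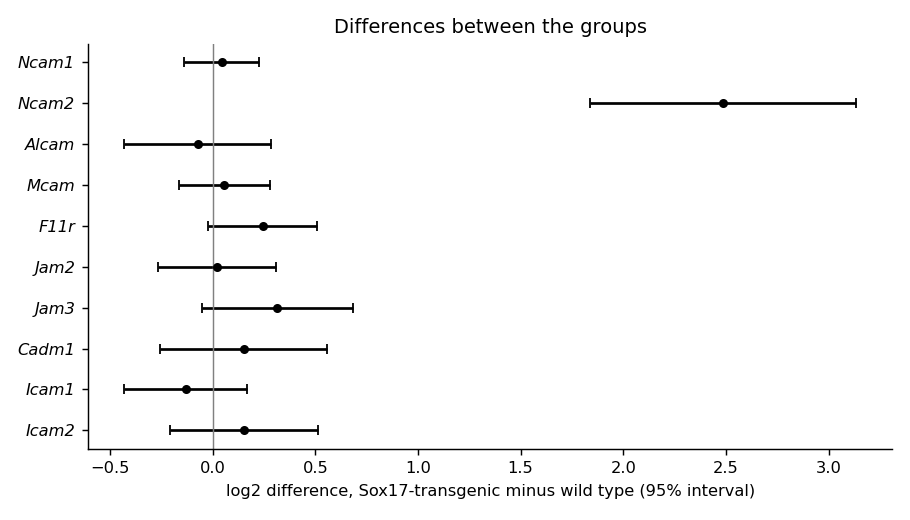
Log2 difference, Sox17-transgenic minus wild type (x axis), of each of the 10 genes (y axis), with points for the limma estimate and bars for its 95% interval. The interval of Ncam2 runs from 1.84 to 3.13 and does not allow for the gene's choice by this difference. Those of the other 9 genes include 0.

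Alcam and Mcam differed little between the groups. Alcam, also known as CD166, binds itself and the T cell protein CD6. It read 8.11, 7.94, 8.25, 8.41 and 7.83 on the transgenic arrays, against 8.35, 8.14, 8.64, 7.83 and 7.95 on the wild-type arrays, a difference of -0.07 (SE 0.16, limma adjusted p = 0.987). The values crossed over, with a wild-type array the highest of all 10. Mcam, or CD146, an adhesion molecule of endothelial cells and pericytes, read 5.49 to 5.74 in the transgenic group and 5.26 to 5.77 in the wild-type group, a difference of 0.06 (SE 0.10). All transgenic Mcam values thus fell inside the wild-type range.

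Jam3 and F11r, 2 of the 3 junctional adhesion genes, had the largest differences among the other 9 and did not pass the threshold. F11r encodes JAM-A of epithelia, endothelium, platelets and leukocytes. It read 7.87, 8.14, 7.98, 8.31 and 7.91 on the transgenic arrays, against 7.50, 8.02, 7.98, 7.79 and 7.71 on the wild-type arrays, a difference of 0.24 (SE 0.12, limma adjusted p = 0.801). Only transgenic arrays 2 and 4 lay above all wild-type arrays. Jam3 encodes JAM-C, the junctional protein of HSCs that binds JAM-B. It read 5.62, 5.46, 5.80, 6.07 and 6.17 on the transgenic arrays, against 5.20, 5.48, 5.97, 5.50 and 5.39 on the wild-type arrays, a difference of 0.31 (SE 0.17, limma adjusted p = 0.829). Transgenic arrays 4 and 5 were above all wild-type arrays, and transgenic array 2 was below 3 of them. In sets A and B the Jam3 difference was 0.29 and 0.50, and the F11r difference 0.24 and 0.28.

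Jam2, which encodes the JAM-C partner JAM-B, read 6.61, 6.43, 6.27, 6.67 and 6.37 on the transgenic arrays, against 6.35, 6.50, 6.82, 6.10 and 6.47 on the wild-type arrays. The transgenic values all lay inside the wild-type range, and the difference was 0.02 (SE 0.13, limma adjusted p = 0.995). Jam2 is also a near neighbour of Ncam2, being the second protein-coding gene after it on chromosome 16 in the RefSeq table of assembly GRCm38.p6. The 3 protein-coding genes on either side of Ncam2, chosen by position after the Ncam2 values were seen, all had a probe set. They were D16Ertd472e, Chodl and Tmprss15 before it and Mrpl39, Jam2 and Atp5j after it. Their differences ran from -0.06 (Atp5j) to 0.12 (D16Ertd472e), with limma adjusted p of 0.951 for Mrpl39 and higher for the others. So 0 of the 6 passed the threshold, while Ncam2 between them differed by 2.48. So few genes cannot set this count apart from the 0.141% of all tested probe sets that passed. Chodl and Tmprss15 were also dim, at 3.30 to 3.75 and 3.20 to 3.62 on the transgenic arrays, where a change of RNA is compressed. A change of the region as a whole was not tested.

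Cadm1, a nectin-like molecule that binds itself and the lymphocyte receptor CRTAM, followed the array sets and not the groups. It read 6.93, 6.65, 6.61, 6.36 and 6.17 on the transgenic arrays, against 6.58, 6.92, 6.29, 6.09 and 6.07 on the wild-type arrays, a group difference of 0.15 (SE 0.19, limma adjusted p = 0.958). The 5 arrays of set A read 6.58 to 6.93 and the 5 of set B 6.07 to 6.36, without overlap. Mcam did not overlap between the sets either, with set A at 5.54 to 5.77 and set B at 5.26 to 5.54, only just apart. These 2 of 10 genes stand beside 9.24% of all tested probe sets, and the sets were defined from values that include both. Within set A the Cadm1 difference between the genotypes was -0.02, and within set B it was 0.11.

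The ICAM genes encode the endothelial and leukocyte ligands of the integrin LFA-1. Icam1, which is induced by inflammatory cytokines, read 6.26, 5.84, 6.31, 6.58 and 5.89 on the transgenic arrays, against 6.18, 6.24, 6.44, 6.31 and 6.35 on the wild-type arrays. Transgenic arrays lay on both sides of the wild-type range, with an SD of 0.31 against 0.10 and a difference of -0.13 (SE 0.14, limma adjusted p = 0.951). Icam2, a constitutive form on endothelium, platelets and leukocytes, read 7.86, 8.05, 7.73, 7.62 and 7.82 on the transgenic arrays, against 7.15, 7.65, 7.62, 7.69 and 8.20 on the wild-type arrays. The transgenic values all lay inside the wild-type range, and the difference was 0.15 (SE 0.16, limma adjusted p = 0.951). Its sign turned between the array sets, with 0.48 in set A, which holds the lowest wild-type value, and -0.11 in set B, which holds the highest. Without wild-type array 1 the Icam2 difference was 0.03 and without wild-type array 5 it was 0.29.

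The profiles most like that of Ncam2 belonged to genes outside the adhesion family. Likeness was measured as the root mean square distance between 2 genes' values over the 10 arrays, after centring each gene on its own mean, among 17064 genes. The 5 nearest were Il10ra, a chain of the interleukin-10 receptor (0.39 units), Slfn2, a schlafen protein of lymphocytes (0.41), Gimap4, a GTPase of lymphocytes (0.47), Mmp16, a membrane-bound matrix metalloproteinase (0.47), and Rasgrp3, an activator of Ras and Rap1 (0.48). In each of the 5 the transgenic arrays lay wholly above the wild-type arrays, and a measure that starts from Ncam2 favours this. All 5 had their highest value on transgenic array 3, as did Ncam2, which choosing them by nearness to Ncam2 also favours. For Rasgrp3 the margin was small, at 7.43 on transgenic array 3 and 7.41 on transgenic array 1. Mmp16 read 7.18, 6.34, 8.27, 7.07 and 6.07 on the transgenic arrays and 4.93 to 5.48 on those of wild type, with its peak on transgenic array 3. Rasgrp3 read 7.11 to 7.43 on transgenic arrays and 4.35 to 4.77 on wild-type arrays, with little spread. Within the family the nearest profile to Ncam2 was that of Jam3, at 1.20 units, not far below the 1.33 units by which Ncam2 itself departed from a flat profile. The other 9 genes had their nearest family member at 0.16 (Ncam1 and Mcam) to 0.29 units (Icam2 and F11r). For every one of them the farthest was Ncam2, which follows from its choice for a large difference, as the distance is not scaled.

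**Figure D4:**
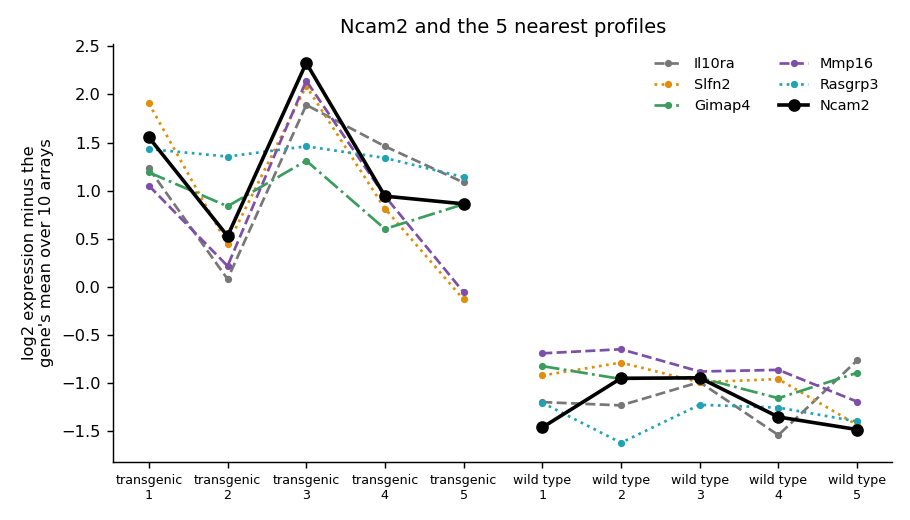
Log2 expression minus the gene's mean over the 10 arrays (y axis) on transgenic arrays 1 to 5 and wild-type arrays 1 to 5 (x axis) for Ncam2 (black) and the 5 genes with the nearest profiles; lines join the points of a gene and replicates have no order. Among the transgenic arrays, Ncam2, Il10ra, Slfn2 and Mmp16 are lowest on array 2 or 5, and Gimap4 on array 4. Rasgrp3 is nearly level over the 5 transgenic arrays.

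Partners of these molecules were followed in 5 lists of 86 entries, of which 82 had a probe set. None of the 82 passed the threshold (0 in limma), beside 0.141% of all tested probe sets. An unadjusted p under 0.05 was found for 11 of the 82 and for 6.59% of all tested probe sets. Positive differences numbered 47 and negative ones 35, where 46.3% of all tested probe sets were positive. The median difference of the 82 was 0.01 against -0.01 over all tested probe sets. The same shares stand beside the counts of each list below. Of the 82 genes 5 did not overlap between the groups (Tjp1, Pecam1 and St8sia4 higher, Ezr and Gfra1 lower on the transgenic arrays), beside 1.47% of all tested probe sets. The lists were written with earlier results of these data known.

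The first list held enzymes and partners of NCAM, with 11 of 12 measured, 7 positive and 4 negative, 0 past the threshold in limma, 2 with an unadjusted p under 0.05 and a median difference of 0.12. St8sia4, an enzyme that adds polysialic acid chains to NCAM1, read 8.49, 8.42, 9.54, 8.81 and 8.08 on the transgenic arrays, against 7.80, 7.59, 7.34, 6.82 and 7.23 on the wild-type arrays. Every transgenic value was above every wild-type value, with transgenic array 3 the highest as for Ncam2. The difference was 1.31 (SE 0.26), or 1.12 within set A and 1.32 within set B. It did not pass over all probe sets (limma adjusted p = 0.113, and 0.0564 to 0.351 over 21 fits). Prnp, the prion protein, which binds NCAM, read 6.20 to 7.35 in the transgenic group and 5.60 to 6.32 in the wild-type group (difference 0.82, SE 0.24, limma adjusted p = 0.377). The GDNF co-receptor Gfra1 and the neural adhesion molecule L1cam differed by -0.14 and 0.20 (limma adjusted p = 0.760 and 0.821).

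2 further lists held what JAM and ICAM proteins bind outside and inside the cell. All 6 leukocyte integrin chains were measured, with 4 positive and 2 negative, 0 past the threshold in limma, 1 with an unadjusted p under 0.05 and a median of 0.03. That 1 was Itgal, the alpha chain of LFA-1, at 4.66 to 4.97 on the transgenic arrays and 4.75 to 5.42 on those of wild type (difference -0.32, SE 0.13, limma adjusted p = 0.680). Itga4 and Itgb1, the chains of VLA-4, differed by 0.20 and 0.18 and Itgax by 0.06. Among the scaffolds at the JAM tail 11 of 12 were measured, with 6 positive and 5 negative, 0 past the threshold in limma, 1 with an unadjusted p under 0.05 and a median of 0.02.

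Tjp1 encodes ZO-1, the tight junction scaffold that binds JAM-A. It read 6.53, 6.07, 6.80, 7.38 and 5.63 on the transgenic arrays, against 4.60, 4.84, 4.83, 5.10 and 4.86 on the wild-type arrays. The groups did not overlap, and the lowest transgenic array, number 5, was 0.53 units above the highest wild-type array. The difference of 1.64 (SE 0.27, 1.75 in set A and 1.57 in set B) narrowly missed the threshold (limma adjusted p = 0.0515). Tjp1 passed in 5 of the 20 limma fits that held its probe set, and its adjusted p reached 0.376 at most. Among the 5 were those with the array set as a block (limma adjusted p = 0.0359), without transgenic array 2 (0.0403) and without transgenic array 5 (0.0172). Transgenic arrays 2 and 5 held its lowest transgenic values, so leaving either out favours a pass. Over all probe sets, 91 passed with the set block and 71 without transgenic array 2, against 33 in the main fit. The Rap activator Rapgef2, the scaffold Afdn and the kinase Prkcz differed by 0.27, 0.15 and -0.21.

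The fourth list held other ligands and tail partners, with 11 of 11 measured, 6 positive and 5 negative, 0 past the threshold in limma, 1 with an unadjusted p under 0.05 and a median of 0.07. Ezr encodes ezrin, which ties ICAM tails to the actin cortex. It read 7.09, 6.89, 7.06, 6.83 and 6.78 on the transgenic arrays, against 7.28, 7.22, 7.16, 7.42 and 7.18 on the wild-type arrays (difference -0.32, SE 0.09, limma adjusted p = 0.329). The groups did not overlap, but lay only 0.07 units apart. Its relative Msn, moesin, differed by 0.13 (SE 0.07), and Actn1 and Epb41l3 by 0.27 and 0.15.

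The fifth list held other immunoglobulin-like adhesion genes, with 43 of 45 measured. Of these 24 were positive and 19 negative, 0 passed the threshold in limma, 6 had an unadjusted p under 0.05, and the median difference was 0.00. Pecam1, or CD31, of endothelium, platelets and leukocytes, read 7.72, 7.70, 8.18, 7.98 and 7.53 on the transgenic arrays, against 7.23, 7.15, 7.19, 7.09 and 7.03 on the wild-type arrays. The groups did not overlap, with a difference of 0.68 (SE 0.12, limma adjusted p = 0.0591). The transgenic arrays spread more (SD 0.26) than the wild-type ones (SD 0.08). Pecam1 passed in 3 of 21 limma fits, among them those with the array set as a block (adjusted p = 0.0469) and without transgenic array 5 (0.0391). Transgenic array 5 held its lowest transgenic value, so leaving that array out favours a pass. Thy1, an anchored adhesion molecule of lymphocytes and neurons found at low levels on mouse HSCs, read 7.72, 6.79, 8.46, 8.44 and 7.97 on transgenic arrays 1 to 5, against 6.25 to 7.10 on the wild-type ones (difference 1.20, SE 0.29, limma adjusted p = 0.224). Transgenic array 2 alone lay inside the wild-type range, and without it Thy1 differed by 1.47 and passed (limma adjusted p = 0.0189). Leaving out the array that overlaps favours this, and 71 of all probe sets passed in that fit, against 33 with all arrays. Thy1 passed in only 1 of 21 fits, and its adjusted p reached 0.733 at most. Pvr, the poliovirus receptor, and embigin, Emb, differed by 0.49 and 0.51 (limma adjusted p = 0.322 and 0.475).

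**Figure D5:**
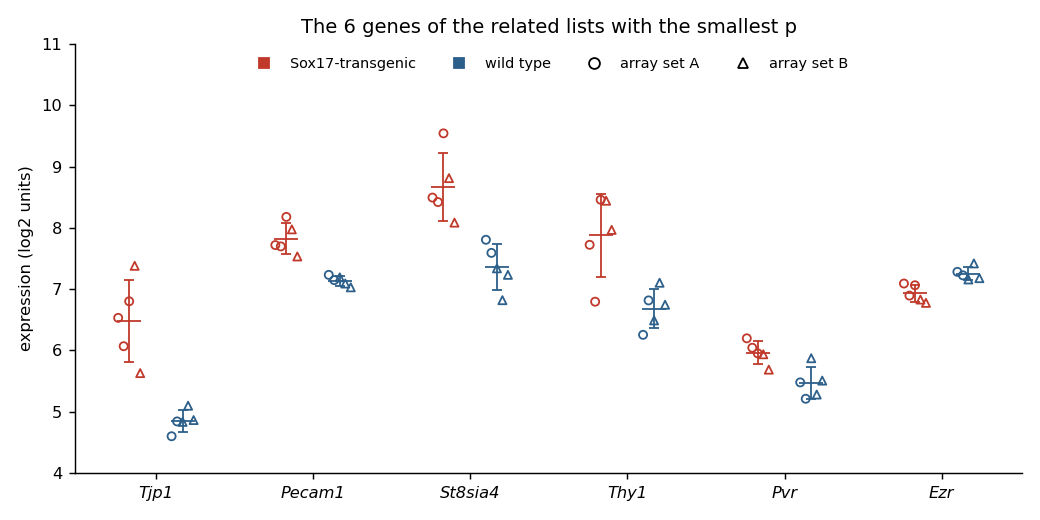
Expression in log2 units (y axis) of the 6 genes of the partner lists with the smallest p, on 5 Sox17-transgenic arrays (red, left of each pair) and 5 wild-type arrays (blue, right), with circles for array set A, triangles for set B, and mean ± SD of 5 arrays. Tjp1, Pecam1 and St8sia4 are higher and Ezr lower on the transgenic arrays without overlap, Thy1 and Pvr overlap, and 0 of the 6 passed the threshold over all probe sets.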

How the data were processed

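The authors deposited log2 expression values per probe set and array, made with robust multi-array average (RMA); RMA, affy and limma are named in the submitters' processing notes, without versions or a genome build, which the sources used here do not give. RMA gives all arrays one intensity distribution and compresses differences between dim signals. Of 35556 probe sets, the platform annotation names 1 gene for 21789 and several for 1621. These 23410 were tested with limma 3.58.1 (R 4.3.3) by a two-sided moderated test of transgenic minus wild type. The level was an adjusted p of 0.05 after Benjamini-Hochberg correction across the 23410. The fit was first tried on simulated data with independent noise on each array. Those data lack the array sets, so the trial cannot show how the sets affect the calls. No filter or further normalization was applied. Precision is limited by the 5 arrays of each group.

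The members and lists were chosen with earlier results of these data known. Named genes were all members, the 4 genes of smallest p in each list and the 5 profiles nearest to Ncam2. The replicate numbers are shared between the groups, but deviations of same-numbered arrays correlated from -0.14 to 0.35 and were over 0.1 in 4 of 5 pairs, so they were not taken to pair the samples. No 2 arrays held identical values. Alternatives were the replicate number or the array set as a block, quantile normalization, median centring, 2 filters on probe sets, a floor, a variance trend, array weights, a threshold of 0.01, leaving out each array, and, chosen after seeing the data, leaving out transgenic arrays 1 and 3.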

Additional observations from a re-analysis of the deposited data

How the results depend on the processing

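Ncam2 was higher on the transgenic arrays under every alternative run, by 2.02 to 2.68 on the log2 scale and by 2.21 to 2.66 when 1 array was left out. Ncam2 was chosen for this difference, so no p of it is given here; counts of adhesion genes past the threshold hold Ncam2 alone and are descriptions, 1 in most fits and 0 with a floor at the 20th percentile and at a threshold of 0.01. Over all probe sets, 33 passed; 15 did with all probe sets of the table, 5 with the floor, 91 with the array set as a block, 7 at the threshold of 0.01, 4 without transgenic arrays 1 and 3, and 15 to 71 when 1 array was left out. Of the partner genes 0 passed, but 1 did among probe sets brighter than the median, with the variance trend and with array weights, 2 with the array set as a block, and 0 to 2 when 1 array was left out. With the replicate block 1 adhesion gene, 33 probe sets and 0 partner genes passed, and the block changed no call among the 10 genes; arrays with one number did not correlate best with each other (0 of 5).

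The other 9 genes stayed short of the threshold in every fit, at an adjusted p of 0.330 or more. In 12 of their 204 alternative values the sign turned. The 204 include fits that change only the variance or the probe sets tested, such as the replicate block, the variance trend and the filters. There the difference equals that of the main fit, so its sign could not turn. Leaving out 1 array gave -0.065 to 0.115 for Jam2, -0.162 to 0.041 for Alcam, -0.011 to 0.117 for Mcam and -0.0023 to 0.081 for Ncam1. Within set A the differences were -0.012 for Ncam1, -0.055 for Mcam and -0.019 for Cadm1, within set B -0.11 for Icam2, and without transgenic arrays 1 and 3 -0.011 for Mcam. The causes were not tested. Averaging a gene's probe sets left each value as it was, since each gene had 1.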
